A study of Mus musculus with 13 samples.

Results

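The let-7 family is described here by the main (5p) arms mmu-let-7a-5p, mmu-let-7b-5p, mmu-let-7c-5p, mmu-let-7d-5p, mmu-let-7e-5p, mmu-let-7f-5p, mmu-let-7g-5p and mmu-let-7i-5p together with their relative mmu-miR-98-5p. These 9 mature microRNAs (miRs) are the family's main arms by name, taken with earlier results of these data known and without a threshold on a value, out of 1384 mature miRs listed, and all 9 were counted in each of the 13 libraries. Small RNA was sequenced from mouse hippocampus and prefrontal cortex (PFC) of FVB/N mice, the parent strain, and of TgR mice, which carry on that strain a transgene for the human "readthrough" variant of acetylcholinesterase, AChE-R. There were 3 FVB/N and 3 TgR hippocampal libraries and 3 FVB/N and 4 TgR PFC libraries, one mouse per library. The transgene is expressed constitutively from a minimal CMV promoter-enhancer and the TgR libraries came from transgenics regardless of their behavior. Age and sex are not given for these libraries, nor whether a mouse gave both regions, and small RNA reads do not measure the transgene. The question was how the family is set in the 2 regions and whether it differs between TgR and FVB/N mice.

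let-7 miRs pair with target mRNAs through a seed near their 5′ end and lower the stability and translation of those mRNAs. In stem and progenitor cells the RNA-binding protein Lin28 is known to block maturation of their precursors. let-7 miRs rise as neural progenitors leave the cell cycle and remain among the abundant miRs of the adult brain. Because members share a seed, they are expected to share many targets, and miR-98 is counted with them for that reason.

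The mature sequences are shown because they define the family and because the members differ by few bases, which bears on how reads are told apart. All were taken from RefSeq (GRCm38), where 9 of 9 members matched, and are printed 5′ to 3′ with the seed, bases 2 to 8, in capitals.
mmu-let-7a-5p: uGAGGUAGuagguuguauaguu
mmu-let-7b-5p: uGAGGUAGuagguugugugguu
mmu-let-7c-5p: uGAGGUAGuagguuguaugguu
mmu-let-7d-5p: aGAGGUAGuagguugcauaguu
mmu-let-7e-5p: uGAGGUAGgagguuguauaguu
mmu-let-7f-5p: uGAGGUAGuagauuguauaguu
mmu-let-7g-5p: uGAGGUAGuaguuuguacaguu
mmu-let-7i-5p: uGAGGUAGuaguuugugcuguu
mmu-miR-98-5p: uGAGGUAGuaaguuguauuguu
All 9 are 22 bases long and all 9 carry the seed GAGGUAG. With positions counted from 1 at the 5′ end and the base of let-7a-5p given first, let-7c-5p differs from let-7a-5p by A19G, let-7b-5p by A17G and A19G, let-7e-5p by U9G and let-7f-5p by G12A. let-7d-5p differs by U1A and U16C, let-7g-5p by G12U and U18C, and miR-98-5p by G11A and A19U. let-7i-5p is the most distant from let-7a-5p, with G12U, A17G, U18C and A19U. A single sequencing error can turn a read of one member into that of another (let-7a-5p and let-7c-5p differ by 1 base), so the split of reads between neighbors is uncertain.

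The members come from 12 hairpins. On the GRCm38 assembly, let-7a-1 (chr13:48538179-48538272, minus strand), let-7f-1 (chr13:48537829-48537917) and let-7d (chr13:48536012-48536114) lie together in an exon of the lincRNA 6720427I07Rik. let-7c-2 (chr15:85706603-85706697, plus strand) and let-7b (chr15:85707319-85707403) lie 621 bases apart in an exon of the noncoding gene Lncppara. let-7c-1 (chr16:77599657-77599750, plus strand) lies in an intron of Mir99ahg, 656 bases from mir-99a, and let-7a-2 (chr9:41536716-41536811, plus strand) lies in an intron of 3110039I08Rik, 5211 bases from mir-100. let-7e (chr17:17830352-17830444, plus strand) lies in an intron of Spaca6, 367 bases from mir-125a. let-7f-2 (chrX:151912346-151912428, plus strand) and mir-98 (chrX:151913214-151913321) share an intron of Huwe1. let-7g (chr9:106178840-106178927, plus strand) lies in an intron of Wdr82, and let-7i (chr10:122985640-122985724, minus strand) in an exon of the transcribed pseudogene D630033A02Rik.

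let-7a, let-7c and let-7f each have 2 hairpins with the same mature sequence, and the deposited tables count nearly the same reads under both. The hairpin row with the higher total exceeded the other by 0.0258% to 0.152% over the 13 libraries for let-7a-5p, by 0.0920% to 0.248% for let-7c-5p and by 3.64% to 5.49% for let-7f-5p. One row per mature miR was therefore used, and no main-arm count can be assigned to one of such hairpins.

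Libraries held 5350259 to 11111883 counts over these single rows. A group of 4 miRs known from neurons (miR-124-3p, miR-9-5p, miR-128-3p and miR-138-5p) summed to between 257750 and 406522 CPM (counts scaled to the same total in each library, with trimmed-mean normalization) in every library, so that miRs defining nervous tissue were abundant throughout. None of the 15 pairs of libraries within a group agreed within counting noise. FVB/N PFC replicate 3 stood apart for the let-7 family: its 9 members summed to 100545 CPM, against 64341 and 68344 CPM in the other FVB/N PFC libraries, and each of the 9 was above both. Among the 647 miRs that passed the filter on low counts, 38.3% were above both, and among the 118 miRs at least as abundant as miR-98-5p 48.3% were. The 5 main arms of the mir-99, mir-100 and mir-125 families, described below, summed to 95180 CPM against 78845 and 83797 CPM, with 4 above both. The 12 let-7 3p arms by name summed to 1266 CPM against 963 and 1457 CPM, with 2 above both. The 4 neuronal miRs summed to 406522 CPM against 317470 and 404370 CPM, with 1 above both. In the same library the 3 oligodendrocyte miRs and the 6 blood miRs were low, with sums of 603 CPM against 973 and 795 CPM and of 2134 CPM against 3120 and 2921 CPM. Their part in the high let-7 values was not tested, and the tests of the members in FVB/N and between genotypes in PFC, as well as the other calls that this library bears on, are given with and without it.

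The family took a mean of 9.54% ± 0.599 of the library (SD, n = 3) in FVB/N hippocampus and 10.4% ± 0.589 (n = 3) in TgR hippocampus. It took 7.74% ± 1.57 (n = 3) in FVB/N PFC and 8.11% ± 0.472 (n = 4) in TgR PFC. The hippocampal libraries ran from 9.16% to 11.0% and the PFC libraries from 6.67% to 9.54%. The ranges of the regions meet only through FVB/N PFC replicate 3, which at 9.54% lay inside the hippocampal range, while the next PFC library reached 8.57%. These are shares of sequenced miR counts, not amounts per cell, and in tissue fewer cells of a type and less RNA per cell cannot be told apart.

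By mean CPM over the 13 libraries the order was let-7f-5p (20769 CPM, rank 8 of the 647 miRs tested), let-7g-5p (20233 CPM, rank 9), let-7i-5p (16502 CPM, rank 11), let-7c-5p (11467 CPM, rank 18), let-7d-5p (7769 CPM, rank 27), let-7a-5p (7164 CPM, rank 28), let-7b-5p (3128 CPM, rank 45), let-7e-5p (1197 CPM, rank 75) and miR-98-5p (525 CPM, rank 118). Ligation during library preparation is known to favor some ends over others, so this order is that of reads and need not be that of molecules. Neighbors at the top and in the middle of the order, let-7f-5p with let-7g-5p and let-7d-5p with let-7a-5p, had ranges over libraries that overlapped widely. let-7e-5p and miR-98-5p never overlapped with each other or with any other member, since miR-98-5p reached at most 629 CPM and let-7e-5p ran from 1051 to 1607 CPM.

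let-7b-5p, processed from the hairpin beside let-7c-2, was higher in hippocampus than in PFC in both genotypes. In FVB/N hippocampus it was 4243, 3798 and 3208 CPM in replicates 1 to 3, and in TgR hippocampus 4423, 3715 and 3880.5 CPM. In FVB/N PFC it was 2507, 2144 and 2975 CPM, and in TgR PFC 2570.2, 2320.2, 2308 and 2568 CPM in replicates 1 to 4. Every hippocampal library was above every PFC library, and the genotypes overlapped within each region.

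let-7c-5p, from the hairpin beside let-7b and from a second one beside mir-99a, showed the same order. It was 14980.3, 14709 and 13825 CPM in FVB/N hippocampus and 15450.2, 12442 and 13576 CPM in TgR hippocampus. In PFC it was 6949, 7584 and 12239 CPM in FVB/N and 9809, 8358, 8499 and 10645 CPM in TgR. The lowest hippocampal library, TgR replicate 2, was above the highest PFC library, FVB/N replicate 3, by a small margin. let-7b-5p and let-7c-5p were the 2 of 9 members whose 6 hippocampal and 7 PFC libraries did not overlap, against 7.42% of the 647 miRs tested.

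**Figure D1:**
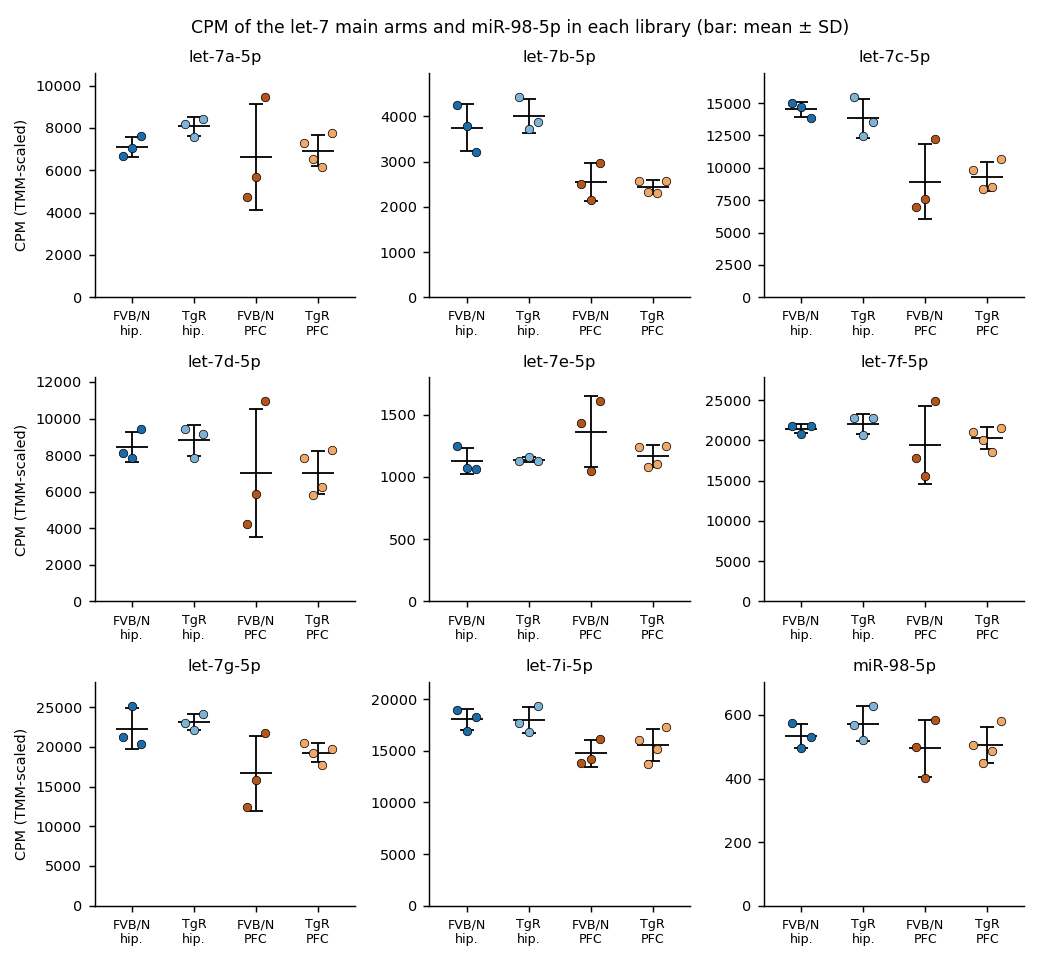
CPM of each of the 9 members (vertical axes, linear from 0) in the 13 libraries, grouped on the horizontal axes as FVB/N and TgR hippocampus (blue) and FVB/N and TgR PFC (orange), with points for single libraries in replicate order and bars for mean ± SD (n = 3, 3, 3 and 4). let-7b-5p and let-7c-5p separate the regions, let-7e-5p does not lie higher in hippocampus, and FVB/N PFC replicate 3, the right-hand dark orange point, is the highest of its group in every panel.

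let-7d-5p, from the chromosome 13 cluster, had the widest spread of the family. It was 8092, 7835 and 9408 CPM in FVB/N hippocampus and 9421, 7834 and 9155 CPM in TgR hippocampus. In FVB/N PFC it was 4237, 5872 and 10937 CPM, which holds both the lowest and the highest of all 13 libraries, and in TgR PFC 7831, 5844, 6252 and 8277 CPM. Regions overlapped in both genotypes.

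let-7a-5p, often taken as the reference member of the family, was 6662, 7056 and 7597 CPM in FVB/N hippocampus and 8207, 7577 and 8433 CPM in TgR hippocampus. It was 4757, 5664 and 9449 CPM in FVB/N PFC and 7281, 6509, 6173 and 7764 CPM in TgR PFC. As with let-7d-5p, FVB/N PFC spanned the lowest and the highest library. In hippocampus the genotypes overlapped narrowly, since FVB/N replicate 3 lay just above TgR replicate 2.

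let-7f-5p, the most abundant member, had libraries that overlapped between all 4 groups. It was 21768, 20851 and 21802 CPM in FVB/N hippocampus and 22768, 20629.6 and 22803 CPM in TgR hippocampus. In PFC it was 17764, 15580.5 and 24847 CPM in FVB/N and 21007, 20055, 18556 and 21571 CPM in TgR. The PFC values surrounded the hippocampal ones, though above them only through FVB/N PFC replicate 3.

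let-7g-5p, the only member from the Wdr82 intron, was 21227, 25181 and 20393 CPM in FVB/N hippocampus and 23003, 22119 and 24124 CPM in TgR hippocampus. In PFC it was 12398, 15792 and 21732 CPM in FVB/N and 20443, 19206, 17656 and 19752 CPM in TgR. In TgR all 3 hippocampal libraries were above all 4 PFC libraries, whereas in FVB/N replicate 3 of PFC lay among the hippocampal ones.

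let-7i-5p, from chromosome 10, was 18948, 16893 and 18298 CPM in FVB/N hippocampus and 17733, 16817 and 19376 CPM in TgR hippocampus. It was 13794, 14254 and 16175 CPM in FVB/N PFC and 16047, 13715, 15148 and 17329 CPM in TgR PFC. Its hippocampal libraries were above the PFC ones in FVB/N and overlapped with them in TgR, and it had the smallest ratio of highest to lowest library in the family, 1.41.

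let-7e-5p, from the cluster with mir-125a, was the member that did not lie higher in hippocampus. It was 1245, 1072 and 1062 CPM in FVB/N hippocampus and 1129, 1162 and 1129 CPM in TgR hippocampus. It was 1436, 1051 and 1607 CPM in FVB/N PFC and 1238, 1081, 1105 and 1248 CPM in TgR PFC. The regions overlapped in both genotypes.

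miR-98-5p, which shares its intron with let-7f-2, was the least abundant. It was 574, 498 and 531 CPM in FVB/N hippocampus and 568, 521 and 629 CPM in TgR hippocampus. It was 499, 403 and 583 CPM in FVB/N PFC and 507, 447, 488 and 581 CPM in TgR PFC. All 4 groups overlapped.

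Between regions, 2 of 9 members passed the test, let-7b-5p and let-7c-5p, and both did so in FVB/N and in TgR. In FVB/N, let-7b-5p was 1.47-fold higher in hippocampus (log2 fold change 0.56, SE 0.14, adjusted p = 0.0318 by the quasi-likelihood test of edgeR, adjusted after Benjamini and Hochberg across 647 miRs) and let-7c-5p 1.63-fold higher (log2 0.70, SE 0.18, adjusted p = 0.0340). In TgR, by the same edgeR test, let-7b-5p was 1.64-fold higher (log2 0.71, SE 0.13, adjusted p = 0.00336) and let-7c-5p 1.48-fold higher (log2 0.57, SE 0.17, adjusted p = 0.0456). Over all miRs tested, 7.57% were called between regions in FVB/N (4.79% as higher in hippocampus) and 10.2% in TgR (5.41% as higher in hippocampus). The 2 genotypes share no library, though the fit pools the spread of all groups.

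The call of let-7b-5p in TgR was kept in all 13 fits that left out one library (adjusted p 0.00189 to 0.0219, edgeR). The other 3 calls were near the threshold. In FVB/N, let-7b-5p stayed past it only when the library left out was FVB/N hippocampus replicate 3, TgR hippocampus replicate 1 or 3, FVB/N PFC replicate 3 or TgR PFC replicate 2 or 4, and reached adjusted p 0.0528 to 0.118 without any of the other 7. let-7c-5p in FVB/N stayed past it only without TgR hippocampus replicate 3, FVB/N PFC replicate 3 or TgR PFC replicate 2 or 4 (0.0507 to 0.133 without any of the other 9), and in TgR only without FVB/N PFC replicate 1 or 3 (0.0599 to 0.180 without any of the other 11). Its fold change stayed positive throughout, at 0.53 to 1.00 (log2) in FVB/N and 0.49 to 0.61 in TgR.

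The other 7 members did not pass the test between regions. In FVB/N the log2 fold changes were 0.42 for let-7g-5p (95% interval 0.07 to 0.77, adjusted p = 0.138, edgeR) and 0.29 for let-7i-5p (0.06 to 0.53, adjusted p = 0.129), each with an unadjusted p under 0.05. let-7d-5p (0.27), let-7f-5p (0.15), miR-98-5p (0.11) and let-7a-5p (0.10) were smaller, and let-7e-5p was the one negative value, -0.28 (-0.595 to 0.04). In TgR the values were 0.32 for let-7d-5p, 0.26 for let-7g-5p, 0.22 for let-7a-5p, 0.21 for let-7i-5p, 0.18 for miR-98-5p, 0.12 for let-7f-5p and -0.03 for let-7e-5p. Thus 8 of 9 members were positive in each genotype, with a median of 0.27 in FVB/N and 0.22 in TgR beside 0.02 and 0.05 over all 647 miRs. With single libraries left out, a choice made after seeing the data, the median ran from 0.10 (without FVB/N PFC replicate 1) to 0.45 (without replicate 3) in FVB/N and from 0.13 (without TgR hippocampus replicate 3) to 0.25 in TgR. It was 0.14 in FVB/N without FVB/N hippocampus replicate 3. The number of positive members in FVB/N fell to 6 without FVB/N PFC replicate 1 and to 5, with a median of 0.13, without replicate 2, and stayed at 8 in TgR. Libraries did not overlap for 3 of 9 members in FVB/N (let-7b-5p, let-7c-5p, let-7i-5p) and 3 of 9 in TgR (let-7b-5p, let-7c-5p, let-7g-5p), against 21% and 27.4% of all miRs tested.

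FVB/N PFC replicate 3 bears on these values. It was singled out because all 9 members were highest in it among the FVB/N PFC libraries. Leaving it out therefore lowers the PFC mean of each member, and the values below were raised in part by that choice. With FVB/N PFC replicate 1 or replicate 2 left out instead, 0 members passed in FVB/N. Without replicate 3, 4 of 9 members passed the test in FVB/N: let-7c-5p (log2 1.00, adjusted p = 0.00251, edgeR), let-7g-5p (0.66, 0.0110), let-7b-5p (0.68, 0.0170) and let-7d-5p (0.75, 0.0322). Over all miRs in that fit, 50 of 667 were called, 32 of them higher in hippocampus. let-7a-5p (0.45, adjusted p = 0.0657) and let-7f-5p (0.36, 0.0711) then came close, and let-7e-5p remained negative at -0.15. The libraries of the regions in FVB/N then did not overlap for 7 of 9 members, all but let-7e-5p and miR-98-5p, against 37.9% of the 647 miRs. This library exceeded the mean of the other 2 FVB/N PFC libraries 2.16-fold for let-7d-5p and 1.81-fold for let-7a-5p, but 1.15-fold for let-7i-5p. Over the 9 members the coefficient of variation within FVB/N PFC had a median of 25.0%, against 7.22% in FVB/N hippocampus, 7.21% in TgR hippocampus and 9.78% in TgR PFC. For the 118 miRs at least as abundant as miR-98-5p the medians were 14.6% in FVB/N PFC, 14.4%, 7.54% and 8.37%. Between the other 2 FVB/N PFC libraries alone the median was 12.3% for the members and 9.94% for the 118 miRs.

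**Figure D2:**
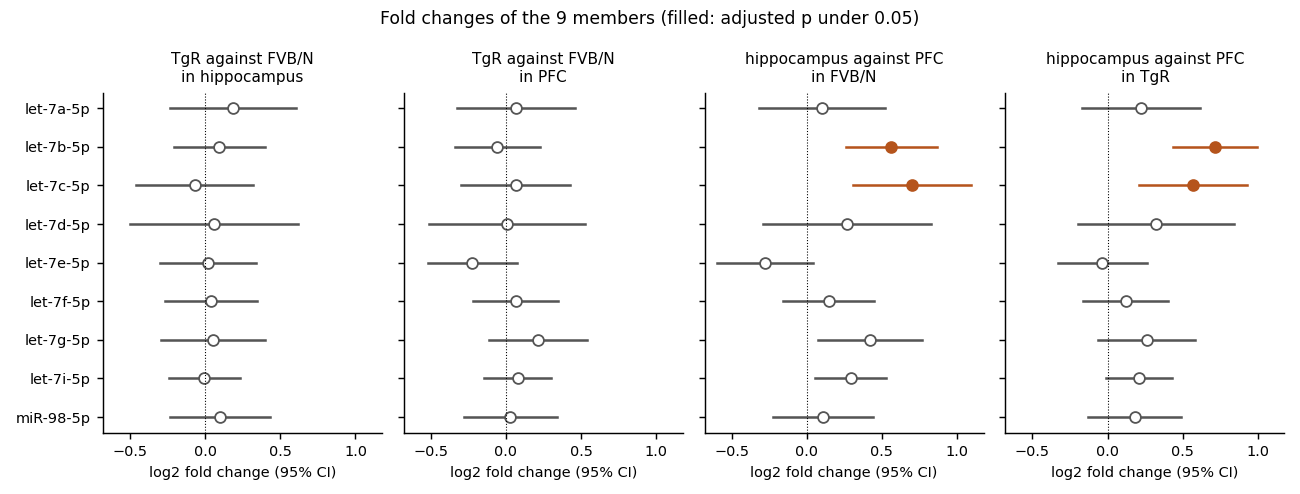
Log2 fold change (horizontal axes) of each of the 9 members in the 4 comparisons, one panel each, with 95% intervals of the edgeR fit over 13 libraries. Filled points passed an adjusted p of 0.05: let-7b-5p and let-7c-5p are higher in hippocampus in both genotypes, and no member passed between TgR and FVB/N.

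Between genotypes, 0 of 9 members passed the test in hippocampus and 0 of 9 in PFC, by edgeR and by DESeq2, and 0 had an unadjusted p under 0.05 by edgeR in either region. Over all miRs tested, 4.64% were called in hippocampus and 0.155% in PFC. In hippocampus the log2 fold changes of TgR over FVB/N ran from -0.07 for let-7c-5p to 0.18 for let-7a-5p, with a median of 0.05 against 0.01 over all miRs. Without TgR hippocampus replicate 3 the median became -0.017, and it ran up to 0.051 when other libraries were left out. For let-7a-5p the 95% interval was -0.24 to 0.60, and for let-7i-5p, the most precise, -0.24 to 0.23. A 1.52-fold rise of let-7a-5p and a 1.17-fold rise of let-7i-5p are thus the largest that these intervals hold. Libraries of the genotypes did not overlap for 0 of 9 members in hippocampus, against 21.6% of all miRs tested.

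In PFC the values ran from -0.22 for let-7e-5p (95% interval -0.52 to 0.07) to 0.21 for let-7g-5p (-0.11 to 0.54), with a median of 0.06 against 0.01 over all miRs. Libraries did not overlap for 0 of 9 members, against 4.64% of all miRs tested. Without FVB/N PFC replicate 3, let-7d-5p reached 0.49, let-7g-5p 0.45 and let-7a-5p 0.42 (adjusted p = 0.489 for each, edgeR), the median of the members rose to 0.28, and still none passed. Without FVB/N PFC replicate 1 or 2, or TgR PFC replicate 4, the median was -0.074, -0.095 or -0.011, so that neither its size nor its sign held.

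The test of whether the genotype difference itself differed between regions called 0 of 9 members by edgeR and by DESeq2, and 0 with an unadjusted p under 0.05, against 0.464% of all miRs tested by edgeR. Its estimates ran from -0.16 for let-7g-5p to 0.24 for let-7e-5p, and the narrowest interval was that of let-7i-5p, -0.41 to 0.24. Without FVB/N PFC replicate 3 they ran from -0.46 for let-7c-5p to 0.09 for let-7e-5p, with 0 of 9 called. The regional differences of let-7b-5p and let-7c-5p differed between genotypes by 0.15 (SE 0.19, adjusted p = 0.936, edgeR) and -0.13 (SE 0.25, adjusted p = 0.962).

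Expressed as a share of the family's own counts, which does not depend on scaling between libraries, the make-up of the family was alike in the 13 libraries, with a few regional shifts. let-7f-5p, let-7g-5p and let-7i-5p together with let-7c-5p held most of the counts. let-7c-5p took 13.2% to 15.3% of the family in hippocampus and 10.8% to 12.2% in PFC. let-7e-5p took 1.10% to 1.27% in hippocampus and 1.39% to 2.23% in PFC, and let-7f-5p 21.3% to 22.7% and 22.8% to 27.6%. These 3 of 9 members did not overlap between the 6 hippocampal and 7 PFC libraries, let-7c-5p higher and the other 2 lower in hippocampus, against 8.81% of all miRs tested when set over the same family total. Most of those miRs are outside that total, so the 8.81% is not a like baseline. Shares of the family are tied, so a larger share of a member lowers those of others. By CPM let-7f-5p was not lower in hippocampus (log2 0.15 in FVB/N and 0.12 in TgR). The let-7b-5p share, 3.34% to 4.34% in hippocampus and 2.86% to 3.90% in PFC, overlapped through FVB/N PFC replicate 1. In FVB/N PFC replicate 3, the high library, the let-7c-5p share was 12.2%, still under the hippocampal range. The count of let-7c-5p over that of let-7a-5p, from which it differs by A19G, was 1.61 to 2.25 in hippocampus and 1.28 to 1.46 in PFC.

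**Figure D3:**
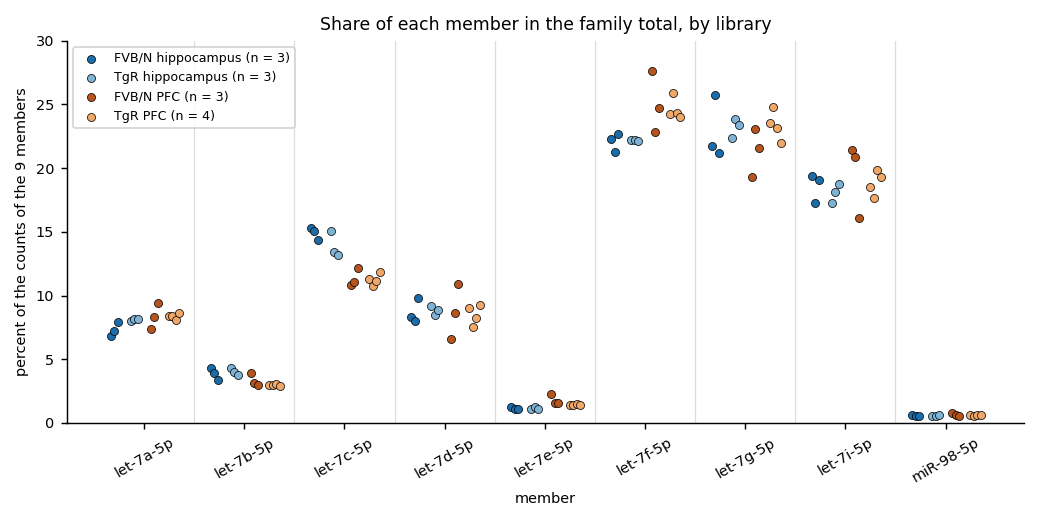
Share of each member in the counts of the 9 members (vertical axis, percent, from 0), one point per library, colored by group as FVB/N and TgR hippocampus (blue) and PFC (orange). let-7c-5p lies higher in hippocampus (13.2% to 15.3%) than in PFC (10.8% to 12.2%), and let-7e-5p and let-7f-5p lie lower.

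The passenger (3p) arms, cut from the same hairpins and usually degraded, are counted with other reads and give a second view of a hairpin. All 12 listed 3p arms were tested, though let-7a-1-3p and let-7c-2-3p have the same sequence and the same counts in 13 of 13 libraries, and so are 1 measurement, which leaves 11. With that pair counted once, the summed level was 813 to 1340 CPM per library, against 64341 to 103106 CPM for the main arms. In FVB/N 1 of 11 was higher in hippocampus than in PFC, let-7f-2-3p, and in TgR 2 of 11 were, let-7b-3p and let-7i-3p, with none lower. Over all miRs tested, 4.79% and 5.41% were called higher in hippocampus. The medians of the list were 0.18 and 0.29, beside 0.02 and 0.05 over all miRs. Neither genotype comparison called any of the 11 by edgeR (0 in each, with an unadjusted p under 0.05 for 1 in hippocampus, let-7i-3p, and 0 in PFC).
mmu-let-7b-3p: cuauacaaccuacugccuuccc
mmu-let-7i-3p: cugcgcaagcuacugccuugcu
mmu-let-7f-2-3p: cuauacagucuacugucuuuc
mmu-let-7a-1-3p: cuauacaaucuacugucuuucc
mmu-let-7c-2-3p: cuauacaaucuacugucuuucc
These are printed as the arms that passed and as the pair that cannot be told apart, in lower case throughout because no part of them is compared.

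let-7b-3p was 37.9, 29.3 and 26.0 CPM in FVB/N hippocampus and 30.6, 32.6 and 35.1 CPM in TgR hippocampus, against 23.6, 31.3 and 25.1 CPM in FVB/N PFC and 21.7, 23.3, 19.5 and 21.9 CPM in TgR PFC. Regions were apart in TgR (log2 0.60, SE 0.17, adjusted p = 0.0353, edgeR) and overlapped in FVB/N (0.22, adjusted p = 0.536), but the difference between genotypes did not pass (0.38, SE 0.25, adjusted p = 0.774, edgeR). Thus both arms of the let-7b hairpin were higher in TgR hippocampus than in TgR PFC.

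let-7i-3p was 66.2, 60.4 and 64.8 CPM in TgR hippocampus and 38.8, 37.4, 37.8 and 40.8 CPM in TgR PFC (log2 0.72, SE 0.18, adjusted p = 0.0224, edgeR), while its main arm did not pass there (0.21). In FVB/N it was 43.5, 53.2 and 34.1 CPM in hippocampus and 48.5, 48.3 and 31.2 CPM in PFC (0.03, adjusted p = 0.957). let-7f-2-3p was 10.2, 12.9 and 7.96 CPM in FVB/N hippocampus and 6.94, 6.72 and 5.04 CPM in FVB/N PFC (log2 0.74, SE 0.21, adjusted p = 0.0468, edgeR). In TgR it was 11.3, 9.87 and 10.6 CPM in hippocampus and 7.69, 8.36, 8.17 and 8.78 CPM in PFC, apart in the same direction but not past the test (0.36, adjusted p = 0.286). let-7f-2-3p rested on 45 to 128 reads and let-7i-3p on 206 to 733 reads per library, and neither arm passed the test of a difference between genotypes in its regional value (adjusted p = 0.474 for let-7i-3p and 0.821 for let-7f-2-3p, edgeR). Without FVB/N PFC replicate 3, let-7f-2-3p in FVB/N no longer passed (0.59, adjusted p = 0.115, edgeR) while let-7c-1-3p did (1.00, adjusted p = 0.0385, against 0.75 and 0.0780 with it), and let-7b-3p and let-7i-3p in TgR still passed.

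The mir-99, mir-100 and mir-125 families are known for clusters with let-7 hairpins. Besides mir-99a, mir-100 and mir-125a, named above, mir-99b lies 94 bases from let-7e, mir-125b-1 lies 45114 bases from let-7a-2 and mir-125b-2 lies 46522 bases from let-7c-1. mir-135a-1, 24626 bases from let-7g, and mir-3113, 52708 bases from let-7f-2, belong to other families and were not in this list. Of the 5 main arms (miR-99a-5p, miR-125b-5p, miR-99b-5p, miR-125a-5p and miR-100-5p), 1 passed a test, miR-99a-5p, whose hairpin lies beside let-7c-1. It was 96775, 71036 and 91932 CPM in FVB/N hippocampus and 62735, 46892 and 52179.7 CPM in TgR hippocampus. In PFC it was 46705, 42172 and 46453 CPM in FVB/N and 50068, 42806, 51663 and 54449 CPM in TgR. FVB/N hippocampus was above all other groups, without overlap.

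miR-99a-5p was therefore higher in hippocampus than in PFC in FVB/N (log2 0.94, SE 0.14, adjusted p = 0.00251, edgeR) and lower in TgR than in FVB/N hippocampus (-0.68, SE 0.14, adjusted p = 0.0134), while the regions did not pass in TgR (0.12, SE 0.13, adjusted p = 0.661). Both calls share the FVB/N hippocampal libraries, and both were kept without FVB/N PFC replicate 3 (0.96, adjusted p = 0.00769, and -0.71, adjusted p = 0.0188, edgeR). The test of that difference between genotypes gave -0.82 (SE 0.19) and an adjusted p of 0.0699, short of the threshold. let-7c-5p, whose reads come from the hairpin beside mir-99a and from let-7c-2, was -0.07 between genotypes in hippocampus. let-7c-1-3p, the arm that belongs to the shared locus alone, was 18.1, 14.9 and 24.3 CPM in FVB/N and 16.7, 14.8 and 14.4 CPM in TgR hippocampus (-0.32, adjusted p = 0.587, edgeR).

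**Figure D4:**
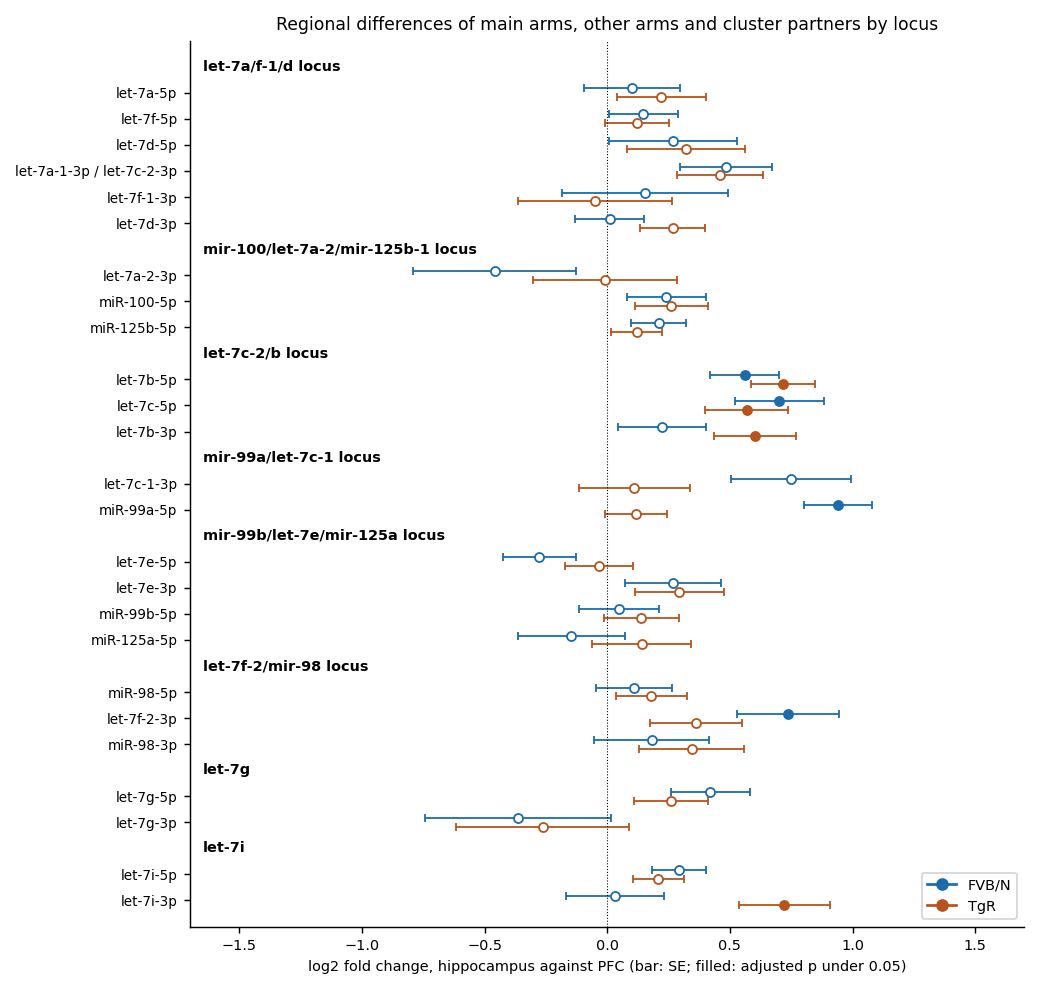
Log2 fold change of hippocampus over PFC (horizontal axis, bars for SE) in FVB/N (blue) and TgR (orange) for main arms, 3p arms and neighboring miRs, grouped by hairpin locus, with main arms of 2 hairpins drawn at one locus only. Filled points passed an adjusted p of 0.05: let-7b-5p and let-7c-5p in both genotypes, miR-99a-5p and let-7f-2-3p in FVB/N, and let-7b-3p and let-7i-3p in TgR.

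let-7j and let-7k, listed as further let-7 miRs, were near the lower end of detection, with a summed level of 2.72 to 8.31 CPM per library, and neither passed any test (0 of 2 in each of the 5 comparisons by edgeR, with an unadjusted p under 0.05 for 1, let-7k, in the test between genotypes of the regional value). let-7k carries the family seed, while the RefSeq sequence of let-7j reads GAGGUAU at bases 2 to 8.

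In likeness over the 13 libraries, measured by the SD of the difference in log2 CPM, members were not always closest to one another. miR-98-5p was closest to let-7f-5p (SD 0.0977), whose let-7f-2 hairpin shares its intron, with miR-3099-3p (0.107) and let-7i-5p (0.108) next. let-7d-5p was closest to let-7a-5p (SD 0.144), whose let-7a-1 hairpin lies in its cluster. Next to let-7d-5p came miR-330-3p (0.175) and miR-346-5p (0.181), ahead of let-7f-5p, whose let-7f-1 hairpin lies in that cluster too. let-7f-5p and let-7a-5p each also come from a second hairpin at another locus, and their reads cannot be assigned to either. let-7b-5p and let-7c-5p were each closest to miR-92b-3p (SD 0.160 and 0.139), with each other next (SD 0.163). let-7a-5p and let-7g-5p were closest to miR-191-5p (SD 0.136 and 0.0999), let-7f-5p to miR-1839-5p (0.0955) and let-7i-5p to miR-148b-5p (0.101). let-7e-5p was closest to miR-337-5p (SD 0.121), with miR-146b-5p (0.135) and miR-24-3p (0.146) next, ahead of miR-99b-5p and miR-125a-5p of its own cluster. The member nearest to let-7e-5p, miR-98-5p, came only at rank 25 of 646 miRs. All points share the depth and the tissue of their library, and these are descriptions without a test.

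Markers of cell types also moved between the groups compared. The oligodendrocyte miRs (miR-219a-2-3p, miR-219a-5p and miR-338-3p) summed to 1484 to 2409 CPM in FVB/N hippocampus and 2297 to 3686 CPM in TgR hippocampus. In PFC they summed to 603 to 973 and 641 to 773 CPM, and 2 of 3 (FVB/N) and 3 of 3 (TgR) were called higher in hippocampus. The 6 miRs of choroid plexus and ciliated cells summed to 1571 to 2202 CPM in FVB/N and 2578 to 9651 CPM in TgR hippocampus, against 992 to 1384 CPM in PFC. Of these, 5 of 6 (miR-204-5p, miR-448-3p, miR-1298-5p, miR-34b-3p and miR-34c-5p, not miR-211-5p) were called higher in TgR hippocampus than in FVB/N hippocampus and than in TgR PFC. None was called between genotypes in PFC or between regions in FVB/N. In the difference between genotype effects miR-34b-3p and miR-34c-5p were called (adjusted p = 0.0046 and 0.0071, edgeR), where 3 of all 647 miRs were. Of 6 blood miRs, 2 (miR-451a and miR-144-3p) were lower in hippocampus than in PFC in TgR and 1 (miR-486a-5p) lower in TgR than in FVB/N hippocampus. Of 4 neuronal miRs 1, miR-128-3p, was lower in hippocampus in both genotypes. Without FVB/N PFC replicate 3, miR-128-3p did not pass in FVB/N (adjusted p = 0.116, edgeR) and 3 blood miRs passed in TgR. Neither of the 2 endothelial miRs was called in any comparison (edgeR). No marker miR of these lists was at 0 in any library, and the part of these cells in the regional values of let-7b-5p and let-7c-5p was not tested.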

How the data were processed

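Total RNA of the dissected regions was made into small RNA libraries (NEBNext kit) and sequenced. The authors checked reads with FastQC and counted them with miRExpress against miRBase, and deposited one table per library of unnormalized counts for each pair of hairpin and mature miR. Here the hairpin row with the highest total was kept per mature miR, and CPM were computed from these deposited counts after TMM scaling. The 13 libraries were fitted together in 4 groups with edgeR 4.0.16 (R 4.3.3), after its filterByExpr step with a minimum count of 10, which kept 647 of 1384 miRs, and quasi-likelihood tests were adjusted by Benjamini-Hochberg over all 647, with 0.05 as threshold. The common coefficient of biological variation was 23.2%. Replicates are separate mice within a region. Alternatives (DESeq2 1.42.0, scaling, filter, rows, groups fitted, replicate block, a threshold of 0.1, libraries left out) were computed for the members. For the other lists only a fit without FVB/N PFC replicate 3 was run, chosen after seeing the data. All 9 members were named. Of the lists, the tested miRs that passed in the fit of all 13 libraries were named, except that the oligodendrocyte calls in FVB/N are given as a count. The fit was tested on simulated counts with changes larger than those called for the members, so that test does not show how often changes of their size are found. Members and lists were chosen with earlier results of these data known.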

Additional observations from a re-analysis of the deposited data

How the results depend on the processing

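The 41 member values that did not pass the test stayed there in all but 3 of 893 alternatives. The 4 values that passed, let-7b-5p and let-7c-5p between regions in each genotype, kept their sign in all 88 but fell short of the threshold in 36. Both totals include the main fit read at an adjusted p threshold of 0.1, in which no value could change. The number of members called between regions in FVB/N (2) became 1 with no filter on low counts and 0 with every hairpin row or with the 2 groups fitted alone, and ran from 0 to 4 when single libraries were left out, the 4 without FVB/N PFC replicate 3. In TgR (2) it became 1 with DESeq2, with DESeq2 size factors, with scaling on miRs outside the family and with every hairpin row, and ran from 1 to 2 when single libraries were left out, with let-7b-5p called each time. The cause was not tested. With total counts alone as scaling, let-7i-5p also passed in TgR (0.29, adjusted p = 0.0476, edgeR). With every hairpin row summed, for the members as for the whole library, the family took 8.46% in FVB/N hippocampus, 9.01% in TgR hippocampus, 6.81% in FVB/N PFC and 7.10% in TgR PFC.

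The replicate numbers of the titles were not taken as pairs. Of 12 same-number pairs 5 correlated over 0.1 in their deviations from group means (-0.15 to 0.39, against -0.58 to 0.39 for other pairs). The 12 include pairs across genotypes, which cannot come from the same mouse. Between regions, same-number pairs gave 0.11, 0.07 and 0.20 in FVB/N (other pairs -0.22 to 0.12). In TgR they gave 0.08, 0.38 and -0.15 (other pairs -0.43 to 0.34). With so few pairs the check cannot decide whether a mouse gave both regions. The deposited tables number FVB/N PFC replicates 2 and 3 as 3 and 4, and by those numbers 4 of 11 pairs correlated over 0.1. A fit with the replicate block called the same number of members, 2 in FVB/N and 2 in TgR between regions and 0 elsewhere, with 47 against 49 miRs called in FVB/N and 59 against 66 in TgR.

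Sign changes, all at values that did not pass, were as follows. Between genotypes in hippocampus, let-7c-5p was 0.013 and let-7i-5p 0.084 with total counts as scaling, let-7i-5p 0.036 with no filter, and let-7e-5p -0.0040 with DESeq2 and with DESeq2 size factors, -0.0022 with scaling outside the family and -0.0026 with every hairpin row. In PFC, let-7d-5p was -0.026 with no filter and -0.018 with the replicate block, and miR-98-5p -0.0023 with total counts, -0.0020 with no filter and -0.032 with the block. Between regions in TgR, let-7e-5p was 0.050 with total counts, 0.0018 with no filter and 0.0039 with the block. For the difference between genotype effects, let-7f-5p was 0.084 with total counts and 0.048 with no filter, and let-7i-5p 0.036 with total counts, a scaling that moved the median of all miRs by 0.12 there.

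With single libraries left out, values between genotypes in hippocampus ran from -0.017 to 0.15 for let-7d-5p, -0.028 to 0.060 for let-7e-5p, -0.030 to 0.057 for let-7f-5p, -0.025 to 0.14 for let-7g-5p, -0.11 to 0.019 for let-7i-5p and -0.016 to 0.13 for miR-98-5p. In PFC they ran from -0.13 to 0.42 for let-7a-5p, -0.19 to 0.070 for let-7b-5p, -0.094 to 0.36 for let-7c-5p, -0.26 to 0.49 for let-7d-5p, -0.095 to 0.28 for let-7f-5p and -0.12 to 0.17 for miR-98-5p. Between regions in FVB/N they ran from -0.10 to 0.45 for let-7a-5p, -0.0050 to 0.75 for let-7d-5p, -0.015 to 0.36 for let-7f-5p and -0.046 to 0.24 for miR-98-5p. For the difference between genotype effects they ran from -0.26 to 0.30 for let-7a-5p, -0.46 to 0.0073 for let-7c-5p, -0.45 to 0.30 for let-7d-5p, -0.27 to 0.11 for let-7f-5p, -0.42 to 0.0049 for let-7g-5p and -0.087 to 0.20 for miR-98-5p. The median over the members ran from -0.017 to 0.051 between genotypes in hippocampus, from -0.095 to 0.28 in PFC and from -0.26 to 0.16 for the difference between genotype effects.

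Over all miRs, 49 were called between regions in FVB/N, but 75 by DESeq2, 22 with those groups fitted alone and 24 to 50 with single libraries left out. In TgR 66 were called (29 to 75 with single libraries left out), and 35 of them higher in hippocampus, against 53 of 75 with total counts as scaling. Between genotypes in hippocampus 30 were called (13 higher), 9 to 37 with single libraries left out and 26 (15 higher) with total counts. In PFC 1 was called, and 2 with no filter. The difference between genotype effects had 3, but 14 by DESeq2, 16 with no filter and 5 with the block.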
